A study of Homo sapiens with 6 samples.

Results

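The genes described here encode kinesins, tubulins, dynein chains, centromere and centrosome proteins, mitotic kinases, B-type cyclins and subunits of the anaphase-promoting complex. They were chosen by name on the 2 deposited lists of genes of high and of low expression. Symbols began with KIF followed by a digit or C, with TUBA, TUBB, TUBG, TUBD or TUBE, or with DYNC or DYNL. The others began with BUB, PLK, NEK or CEP and a digit, or with CENP, AURK, NDC80, NUF2, DNAH, CCNB, CDC20, CDC25 or ANAPC. The rule found 85 genes among the 8942 symbols that stood on 1 list, 78 of them on the high and 7 on the low one. Cells were SiHa, an established line from a cervical squamous cell carcinoma, split in a transwell into cells that had migrated through the membrane 10 h after seeding and cells that had not. Migrated cells gave 3 RNA-seq libraries and non-migrated cells another 3, from wells that were pooled, and the labels name no drug or gene change in either.

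Kinesins and dyneins are motors that walk along microtubules, which are built from alpha- and beta-tubulin and seeded by gamma-tubulin. In dividing cells a set of kinesins and kinases builds the spindle, the centromere proteins and the NDC80 complex fasten chromosomes to it, the BUB proteins delay anaphase until every chromosome is attached, and the anaphase-promoting complex then marks cyclin B for destruction. Close relatives of the same proteins serve axons, motile cilia and sperm, so that the families mix genes needed by any cycling cell with genes used in few tissues.

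The lists give a symbol and an hg19 position for each gene and no expression value. Neither their selection rule nor the libraries behind them are stated in the labels or headers, so standing on a list is taken as a level in these cells, not as a change between the fractions. The table of fragment counts per library named its 26006 loci by assembly ID and 0 by gene symbol, so no level per library and no difference between migrated and non-migrated cells could be given for any gene below. Its libraries held 23166447 to 25662866 assigned fragments in the migrated fraction and 18226280 to 33466924 in the non-migrated fraction. Of 8 epithelial markers, KRT7, KRT8, KRT18, KRT17 and DSP were on the high list and KRT19, EPCAM and CDH1 on neither. The proliferation markers MKI67, TOP2A and PCNA were on the high list. The high list held 0 of 7 markers each of ciliated cells, neurons and germ cells, while the low list held 1 ciliary marker (FOXJ1), 3 neuronal ones and 5 of germ cells.

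Most of these genes stood on the high list where they were listed at all. The high list took 91.8% of the 85 listed genes, where it took 50.6% of all symbols that stood on 1 list. RefSeq names 211 protein-coding genes of the same name pattern, of which 78 (37.0%) were high, 6 (2.84%) low and 127 (60.2%) on neither. Of all 20056 protein-coding genes, 21.1% were high and 18.0% low, and outside the name pattern the shares were 21.0% and 18.2%. The share on neither list was 60.8% over all protein-coding genes, close to that of the named families, so the families differed from the whole in which list held them and not in how many were listed. These shares are descriptions without a test, because genes of 1 family are not replicates. Absence from both lists says only that a gene was put on neither and gives it no level.

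The counts differed between the roles assigned to the genes, which were assigned with earlier results of these data known. Genes of mitosis, a class that also holds proteins with work in interphase, were high in 45 of 70 cases and low in 0. Genes of general transport and the cytoskeleton were high in 19 of 25 and low in 0. Other centrosomal genes were high in 7 of 27 and low in 0, and neuronal relatives high in 2 of 13 and low in 0. Ciliary genes were high in 3 of 40 and low in 3, and germline genes high in 0 of 11 and low in 3. Of all protein-coding genes, 21.1% were high and 18.0% low, so ciliary genes were less often on either list than genes in general. The remaining 25 genes, of uncertain or other roles, were high in 2 cases and low in 0.

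**Figure D1:**
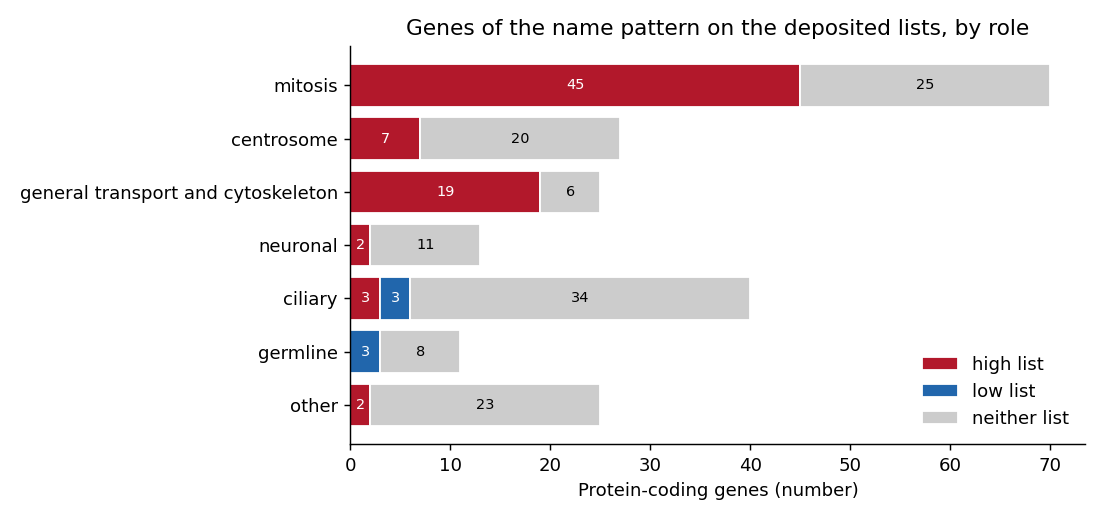
Protein-coding genes of the name pattern, in number, by the role assigned to each gene. Bars are split into genes on the high list (red), the low list (blue) and neither list (grey). The mitosis bar holds 45 high and 0 low genes, and the germline bar 0 high and 3 low.

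Where 21.1% of all protein-coding genes were high, kinesins of the spindle were almost all on the high list, at 12 of 13. They were KIF11, which pushes the spindle poles apart, KIFC1, which gathers the poles, and KIF2C and KIF2A, which take microtubule ends apart. The chromosome-arm motors KIF4A and KIF22, the astral microtubule motor KIF18B and the spindle motor KIF15 were with them, as were KIF14, KIF20A, KIF20B and KIF23, the motors of cytokinesis. KIF18A, which damps chromosome oscillation, was the exception and stood on neither list. CENPE, a kinesin of the kinetochore named as a centromere protein, was also high. Of 8 kinesins of general transport, 4 were high, namely KIF5B, KIF1B, KIF1C and KIFC3, while KIF13A, KIF13B, KIF16B and KIF21A were on neither list.

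The same families held relatives that were not on the high list. The 5 neuronal kinesins KIF1A, KIF5A, KIF5C, KIF3C and KIF21B were on neither list. So were 60.8% of all protein-coding genes, while 21.1% were high and 18.0% low. Of 9 ciliary kinesins, KIF3B, a subunit of the intraflagellar transport motor, and KIF7, which acts in Hedgehog signalling at the cilium tip, were high. KIF6 and KIF19, motors of motile cilia, were low, and the other 5 were on neither list, including KIF3A, the partner of KIF3B. KIF2B, the testis relative of KIF2A and KIF2C, was low. Its coding sequence matched that of KIF2A at 58.7% and that of KIF2C at 55.3% of aligned positions, with no shared run over 16 bases. KIF4B, an intronless copy of KIF4A, was on neither list, and its coding sequence matched KIF4A at 95.7% with a shared run of 151 bases, so fragments of these copies could be misassigned.

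Among kinases of the mitosis class, AURKA, AURKB, PLK1, NEK2, NEK7 and NEK9 were high, with the checkpoint kinase BUB1, while PLK4 and NEK6 were on neither list. AURKA, the spindle pole kinase, and AURKB, the kinase of the chromosomal passenger complex, were high, while AURKC, their meiotic relative, was on neither list. AURKAIP1 also matched the name pattern and was high, but it encodes a protein that binds Aurora A and a subunit of the mitochondrial ribosome. BUB1, BUB1B and BUB3 of the spindle checkpoint were all high. PLK1, which acts at centrosomes, kinetochores and the midbody, was high, as was PLK2, a polo-like kinase induced by growth signals and stress. PLK3, PLK5 and PLK4, the kinase that starts centriole duplication, were on neither list. Of 11 NEK kinases, NEK2, NEK7 and NEK9 (27.3%) were high, 0 low and 72.7% on neither list. This was near the 21.1% high and 60.8% on neither list among all protein-coding genes, of which 18.0% were low. NEK6, which acts with NEK7 and NEK9 in mitosis, and the ciliary kinases NEK1, NEK8 and NEK10 were on neither list.

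Among cyclins, phosphatases and the machinery that destroys cyclins, every listed gene was high, but several were on neither list. CCNB1 and CCNB2, the partners of CDK1, were high, and the meiotic genes CCNB3 and CCNB1IP1 were on neither list. CDC20, the activator of the anaphase-promoting complex, was high, while CDC20B, its relative in multiciliated cells, was on neither list. The phosphatases CDC25A and CDC25B, which activate cyclin-dependent kinases, were high and CDC25C was on neither list. Of 10 subunit genes named ANAPC, ANAPC1, ANAPC2, ANAPC5, ANAPC7, ANAPC13 and ANAPC16 were high and ANAPC4, ANAPC10, ANAPC11 and ANAPC15 on neither list. A further 4 subunits carry an ANAPC name only as an older symbol. Of these CDC16, CDC23 and CDC27 were high and CDC26 on neither list, so that the whole complex had 9 of 14 subunits high and 0 low. Among all protein-coding genes 21.1% were high, 18.0% low and 60.8% on neither list.

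Listed centromere proteins were all high. Of the 24 genes named CENP, 25% were high and 75% on neither list, against 21.1% and 60.8% of all protein-coding genes. Of 20 centromere genes in the mitosis class, 6 were high and 14 on neither list. The 6 were CENPB, which binds alpha satellite DNA, CENPE and CENPF, proteins of the outer kinetochore, and CENPN, CENPO and CENPT of the constitutive centromere network. CENPA, the histone variant that marks the centromere, and CENPC, which binds it, were on neither list. NDC80 was high and NUF2, its partner in the microtubule-binding rod, was on neither list.

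Of the genes that seed microtubules, TUBG1 and TUBGCP2, TUBGCP5 and TUBGCP6 of its ring complex were high, while TUBGCP3, TUBGCP4 and the brain gamma-tubulin TUBG2 were on neither list. Of 39 genes named CEP, 10 (25.6%) were high and 0 low, and 21.1% of all protein-coding genes were high. CEP192, which recruits mitotic kinases to the centrosome, and CEP55, which acts at the midbody, were among them. Others on the high list were CEP57, CEP72, CEP78, CEP85, CEP170, CEP350 and CEP250, the linker between parental centrioles. CEP152 and CEP63, which bring PLK4 to centrioles, and CEP290, of the ciliary transition zone, were on neither list. CEP43 was absent under that name but stood on the high list under its older symbol FGFR1OP.

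**Figure D2:**
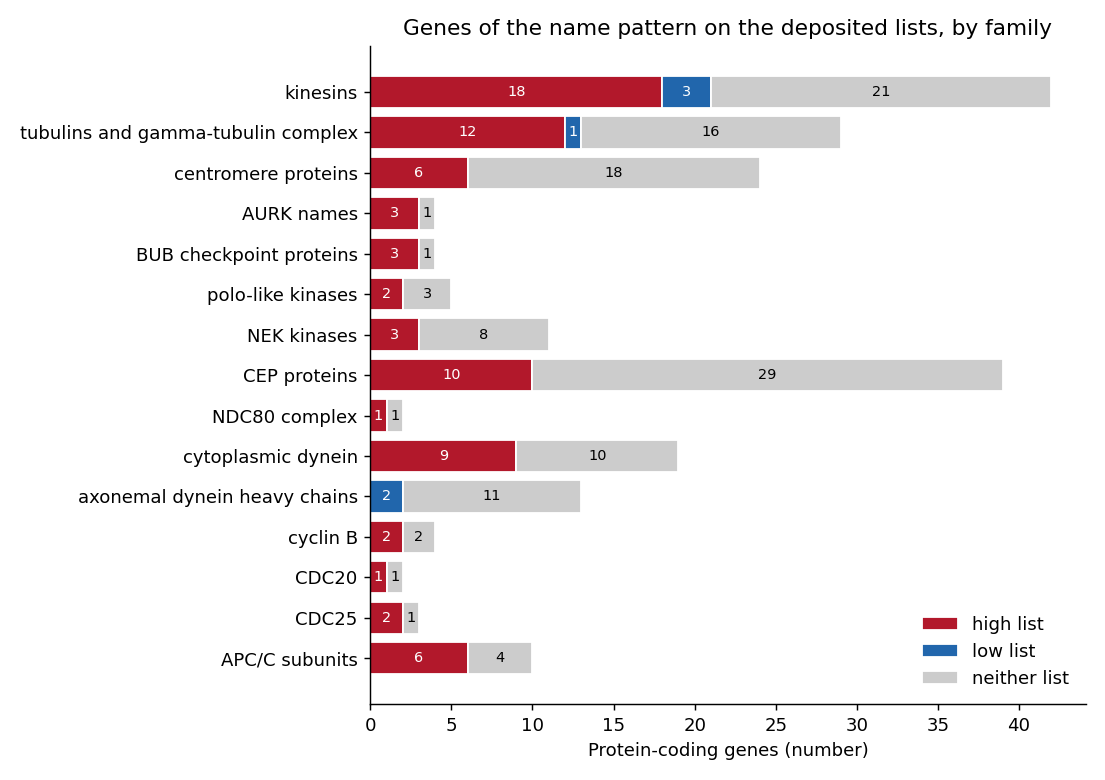
Protein-coding genes of the name pattern, in number, by family. Bars are split into genes on the high list (red), the low list (blue) and neither list (grey). Low genes are seen in kinesins (3), tubulins (1) and axonemal dynein heavy chains (2). CEP and centromere proteins are mostly grey, as are 60.8% of all protein-coding genes.

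Of the 29 tubulin and ring complex genes, 12 (41.4%) were high, 1 low and 16 (55.2%) on neither list. All protein-coding genes were high in 21.1%, low in 18.0% and on neither list in 60.8%. Of 10 alpha-tubulins, TUBA1A, TUBA1B, TUBA1C and TUBA4A were high, TUBA3C, an alpha-tubulin of testis, was low, and 5 were on neither list. The genes TUBA1B, TUBA1A and TUBA1C lie in 1 cluster on chromosome 12, with gaps of 53.4 kb and 38.6 kb between them. TUBA1A matched TUBA1B at 97.2% and TUBA1C at 95.9% of aligned coding positions, and TUBA1B and TUBA1C shared a run of 326 bases, so fragments from such runs fit more than 1 of these genes, and how they were assigned was not tested. TUBA3C matched the high genes at 83.8 to 84.8%, with shared runs of at most 26 bases. It was far closer to TUBA3D and TUBA3E, testis genes on neither list, at 96.6% and 96.1%, with runs of 119 and 110 bases.

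Of 10 beta-tubulins, TUBB, TUBB3, TUBB4B and TUBB6 were high, 0 were low, and TUBB2A, TUBB2B, TUBB4A, TUBB1, TUBB8 and TUBB8B were on neither list. TUBB3 is known as the neuronal beta-tubulin and was, with TUBA1A, which is best known from the developing brain, the neuronal relative on the high list. The listed span of TUBB3 overlapped RP11-566K11.2, a gene of the same strand also on the high list, over 84.7% of its length. Overlap of their exons was not computed, so how far fragments of both can be told apart is not known. TUBB1 of platelets, TUBB8 of the oocyte and TUBB2B and TUBB4A of the brain were among those on neither list. TUBB2A and TUBB2B matched at 98.2%, with a shared run of 725 bases. Delta-tubulin (TUBD1) and epsilon-tubulin (TUBE1), which centrioles need for their triplet microtubules, were on neither list.

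Of 19 cytoplasmic dynein genes, 9 (47.4%) were high, 0 low and 10 (52.6%) on neither list by their current names. The shares of all protein-coding genes were 21.1%, 18.0% and 60.8%. All 9 general chains were high, namely the heavy chain DYNC1H1, the intermediate chain DYNC1I2, the light intermediate chains DYNC1LI1 and DYNC1LI2 and the light chains DYNLL1, DYNLL2, DYNLRB1, DYNLT1 and DYNLT3. DYNC1I1, the intermediate chain used mainly by neurons, was on neither list. The 6 chains of intraflagellar transport and ciliated tissue, DYNC2H1, DYNC2LI1, DYNC2I1, DYNC2I2, DYNLRB2 and DYNLT2B, were listed on neither list by those names, but DYNC2I2 was high under its older symbol WDR34. DYNLT2 and DYNLT4 were on neither list, and DYNLT5 was low under its older symbol TCTEX1D1. Of the 13 axonemal dynein heavy chains, which bend cilia and sperm tails, 0 were high, DNAH8 and DNAH9 were low and 11 were on neither list. Over all protein-coding genes 21.1% were high and 18.0% low, so the share of these chains on the low list was no higher than that of all genes.

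The low list thus held 7 of these genes. DNAH8, a dynein of sperm tails, lies on chromosome 6 from 38683117 to 38998301. KIF6 lies on the same chromosome from 39297766 to 39693181, 299 kb away. DNAH9, of motile cilia, lies on chromosome 17 from 11501748 to 11873485. KIF19 lies there too, from 72322349 to 72351959, as does KIF2B, from 51900239 to 51902573. TUBA3C lies on chromosome 13 from 19747910 to 19755992. The seventh, KIF25-AS1 (chromosome 6, 168393502 to 168397757), is a non-coding transcript antisense to KIF25 and encodes no kinesin, and KIF25 itself was on neither list. No member of the mitosis, centrosome, neuronal or general transport classes was among them. On neither list were 34 of 40 ciliary (85%), 8 of 11 germline (72.7%) and 11 of 13 neuronal genes (84.6%). The share among all protein-coding genes was 60.8%. The low list held 3 of the ciliary, 3 of the germline and 0 of the neuronal genes, and 18.0% of all protein-coding genes.

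Listed genes differed in size. The genomic span of the 78 high genes ran from 1.77 kb (AURKAIP1) to 171 kb (KIF1B), with a median of 29.98 kb, against 33.2 kb over the whole high list. The 7 low genes ran from 2.34 kb (KIF2B) to 395 kb (KIF6), with a median of 29.6 kb, against 10.9 kb over the whole low list. That median was 172 kb over the 6 protein-coding genes and 8.08 kb without the axonemal dyneins, which turns the direction against the whole list. The low genes fell into long and short ones, with DNAH8 at 315 kb, DNAH9 at 372 kb and KIF6 at 395 kb, and the other 4 no longer than 29.6 kb (KIF19). Among the high genes 7 exceeded 100 kb, or 8.97%, against 16.9% of the high list, and all high tubulin and ring complex genes were between 2.50 kb (TUBB4B) and 45.4 kb (TUBA1C). High kinesins ran from 8.997 kb (KIF20A) to KIF1B.

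**Figure D3:**
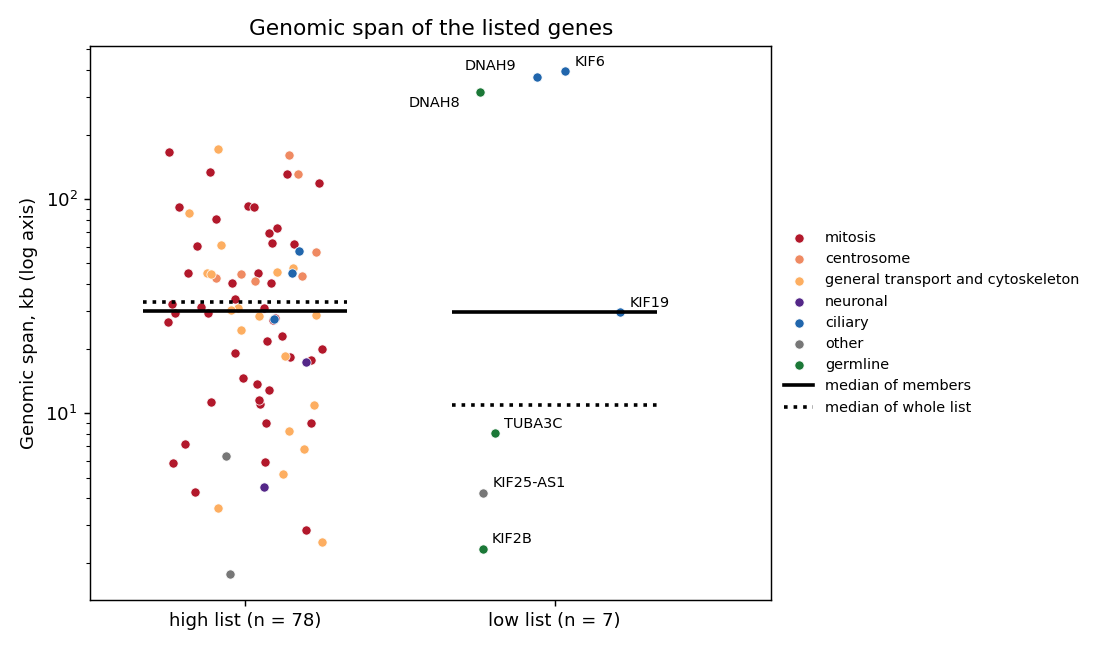
Genomic span in kb (log axis) of the listed genes, 1 point per gene, coloured by role, for the high and the low list. Solid lines are medians of these genes and dotted lines medians of the whole list. The 3 longest genes, KIF6, DNAH9 and DNAH8, are low, and the 78 high genes reach at most 171 kb.

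Coding sequences in GENCODE, chosen by principal transcript, gave a second measure of size. The 78 high genes had a median of 1934 coding bases and 14 exons, from 222 bases in ANAPC13 to 13938 in DYNC1H1. The whole high list had medians of 1506 bases and 11 exons. The 6 protein-coding low genes had a median of 2718 bases and ran from 1350 in TUBA3C to 14121 in DNAH8, whose message has 93 exons. Over the whole low list the median was 1017 bases and 5 exons. CENPB was the single-exon gene among the 78 high genes, and KIF2B that among the 6 low ones. Single-exon genes made up 0.968% of protein-coding genes listed as high and 19.2% of those listed as low.

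By chromosome, 12 of the 78 high genes lay on chromosome 1, as did 487 of all 4527 symbols on the high list only. That chromosome holds 23 of the 211 protein-coding genes of the name pattern. The nearest listed gene stood on the same list for 60 of the 78 high genes (76.9%), against 76.2% over the whole high list, so no difference from other high genes was seen there. The starts of 6 high genes faced another listed start on the other strand within 1 kb. AURKA and CSTF1 started 34 bases apart, DYNLL1 and SRSF9 57, ANAPC5 and RNF34 145, and KIF20A and BRD8 267. CENPB and CDC25B, both members, started 241 bases apart on opposite strands of chromosome 20. All partners were on the high list, and 7.69% of the high members had such a partner, against 7.11% of the whole high list. CENPO overlapped ADCY3 over 3208 bases and KIF20A overlapped BRD8 over 268 and CDC23 over 66 bases, in each case on opposite strands. The labels name a TruSeq RNA kit that does not mark strand, so strand cannot assign fragments of such overlaps to 1 gene. These are overlaps of whole spans, and those of exons were not computed.

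Promoter sequences were compared for letters known from cell cycle genes. The CHR element, here TTTGAA or TTCGAA, is known as the site by which the MuvB complexes bind promoters of genes of late cell cycle phases, and the CCAAT box (CCAAT) as the site of the factor NF-Y. Promoters from RefSeq (GRCh38.p14, 250 bases before to 50 after an annotated start) were found for 42 of the 45 mitosis genes of the high list. Of these 23 (54.8%) held a CHR match on either strand, 25 (59.5%) a CCAAT match and 17 (40.5%) both. Of the other high genes, 28 had a promoter, of which 21.4% held a CHR match, 53.6% a CCAAT match and 17.9% both. On the forward strand alone the CCAAT shares were 28.6% in the mitosis genes and 39.3% in the other high genes, which turns their order, and both motifs were held by 14.3% and 10.7%. Over the whole high list the shares were 15.5%, 43.8% and 6.97%, and over all protein-coding genes 17.5%, 42.1% and 7.28%. Over all 35116 promoters of the table they were 16.4%, 34.6% and 6.38%.

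The 6 low genes with a promoter, which include the non-coding KIF25-AS1 and lack KIF19, held 0 CHR matches and 5 held a CCAAT match. Over the whole low list 23.6% of genes held a CHR match, more than on the high list, so the element is not a mark of the high list in general. Of 21 mitosis genes on neither list with a promoter, 38.1% held a CHR match and 23.8% both. CENPA, CENPC, CENPW, KIF18A and CDC25C were the 5 with both. These 21 genes had 1.95 starts per gene, against 1.19 in the mitosis genes of the high list. With 1 start per gene their shares were 28.6% and 19.0%, against 52.4% and 38.1% in the mitosis genes of the high list. A site resembling those of E2F (TTTCCCGC, TTTGGCGC, TTTCGCGC or TTTGCCGC) was held by 9.52% of the mitosis genes of the high list, against 8.90% of the whole high list. Those genes were CDC25A, CEP192, KIF15 and TUBG1. A part of the site of the neuronal repressor REST (TTCAGCACC) was in 0 of the listed members with a promoter and in 0.473% of all protein-coding genes. A match is a description of letters and not a site of binding.

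**Figure D4:**
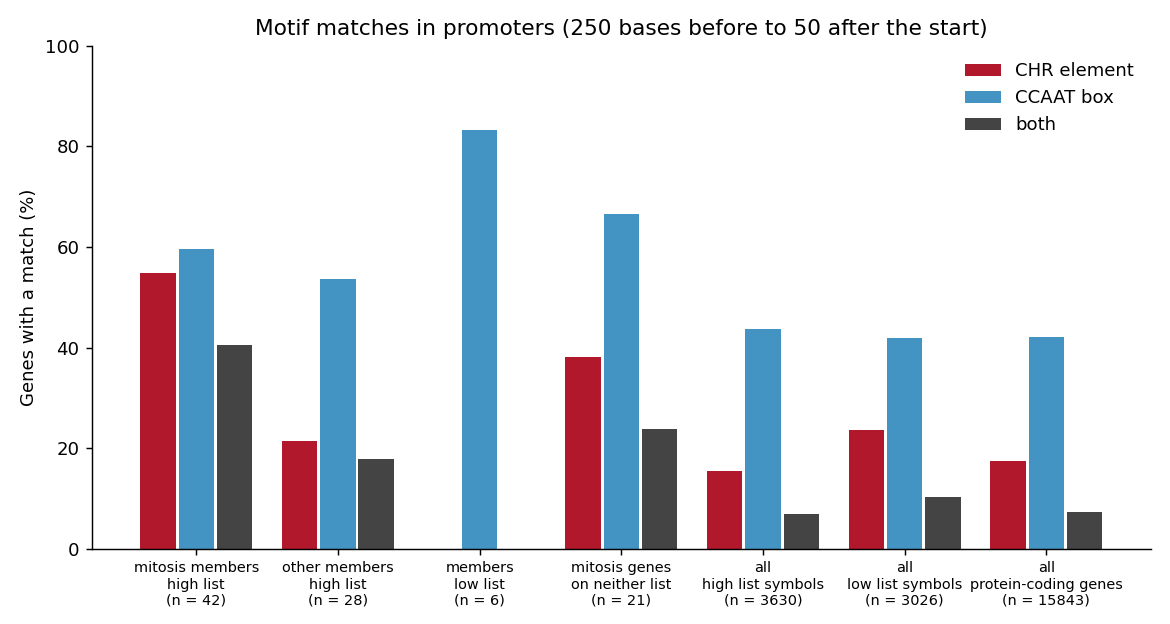
Share of genes, in percent, with a match to the CHR element (red), the CCAAT box (blue) or both (dark grey) in a window of 300 bases around an annotated start, by gene set. The mitosis genes of the high list reach 54.8% for the CHR element, and the whole high list 15.5%.

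The first 5 promoters below are shown because they are rich in matches of both kinds among mitosis genes of the high list. CCNB2 and CENPF held 5 matches each, CDC20 and KIF20B 4, and BUB1 3, a number it shared with CEP192, CEP55, KIF18B and KIFC1, from which it was taken by alphabetical order. The kinesins KIF2B and KIF6 follow as relatives of KIF20B on the low list. Of the low genes not printed, TUBA3C held 5 CCAAT matches, DNAH9 2, and DNAH8 and the non-coding KIF25-AS1 1 each. They lie at chr15:59104896-59105195 (CCNB2, plus strand), chr1:214602945-214603244 (CENPF, plus), chr1:43358731-43359030 (CDC20, plus), chr10:89701340-89701639 (KIF20B, plus) and chr2:110678014-110678313 (BUB1, minus) of GRCh38.p14, and the low genes at chr17:53822677-53822976 (KIF2B, plus) and chr6:39725359-39725658 (KIF6, minus). Capitals mark CHR and CCAAT matches on either strand, and each runs 5′ to 3′ along its gene.
CCNB2: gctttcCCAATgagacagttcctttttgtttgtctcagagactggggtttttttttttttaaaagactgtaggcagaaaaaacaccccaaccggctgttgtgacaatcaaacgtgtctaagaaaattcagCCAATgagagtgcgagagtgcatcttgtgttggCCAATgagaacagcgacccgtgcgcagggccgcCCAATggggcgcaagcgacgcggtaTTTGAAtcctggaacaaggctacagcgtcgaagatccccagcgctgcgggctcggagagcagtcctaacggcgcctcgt
CENPF: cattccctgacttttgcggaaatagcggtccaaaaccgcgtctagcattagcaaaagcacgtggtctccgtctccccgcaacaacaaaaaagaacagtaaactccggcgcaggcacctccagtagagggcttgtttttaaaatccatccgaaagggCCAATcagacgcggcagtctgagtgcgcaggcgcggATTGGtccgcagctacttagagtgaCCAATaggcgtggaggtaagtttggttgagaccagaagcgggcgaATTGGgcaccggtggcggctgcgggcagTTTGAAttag
CDC20: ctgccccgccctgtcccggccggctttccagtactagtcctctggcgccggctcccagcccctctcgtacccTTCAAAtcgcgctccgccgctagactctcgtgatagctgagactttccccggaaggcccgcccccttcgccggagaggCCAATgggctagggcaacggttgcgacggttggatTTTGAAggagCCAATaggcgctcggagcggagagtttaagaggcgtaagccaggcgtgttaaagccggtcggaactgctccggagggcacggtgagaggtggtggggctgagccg
KIF20B: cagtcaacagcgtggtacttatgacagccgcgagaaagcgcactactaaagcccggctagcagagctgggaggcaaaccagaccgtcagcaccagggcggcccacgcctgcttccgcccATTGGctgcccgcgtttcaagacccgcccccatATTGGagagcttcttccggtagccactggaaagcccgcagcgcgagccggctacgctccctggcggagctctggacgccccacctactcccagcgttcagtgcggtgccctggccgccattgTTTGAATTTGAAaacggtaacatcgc
BUB1: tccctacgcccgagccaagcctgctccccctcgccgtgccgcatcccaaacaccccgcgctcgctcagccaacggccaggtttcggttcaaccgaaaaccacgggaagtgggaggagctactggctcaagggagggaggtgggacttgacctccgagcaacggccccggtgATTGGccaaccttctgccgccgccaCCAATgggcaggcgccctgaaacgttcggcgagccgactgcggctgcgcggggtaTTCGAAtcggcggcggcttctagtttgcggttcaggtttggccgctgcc
KIF2B: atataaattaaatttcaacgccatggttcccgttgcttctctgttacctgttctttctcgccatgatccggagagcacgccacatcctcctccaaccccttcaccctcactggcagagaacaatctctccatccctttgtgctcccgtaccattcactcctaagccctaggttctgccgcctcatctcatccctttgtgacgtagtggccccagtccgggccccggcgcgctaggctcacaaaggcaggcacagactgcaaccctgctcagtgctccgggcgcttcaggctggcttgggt
KIF6: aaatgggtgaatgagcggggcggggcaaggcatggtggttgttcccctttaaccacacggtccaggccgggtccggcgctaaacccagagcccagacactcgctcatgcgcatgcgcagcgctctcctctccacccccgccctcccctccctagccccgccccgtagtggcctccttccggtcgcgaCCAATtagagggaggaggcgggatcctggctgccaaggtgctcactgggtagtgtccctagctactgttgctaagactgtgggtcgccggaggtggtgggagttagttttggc

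CCNB2 held CCAAT boxes with first bases at -244, -120, -87 and -54 from the start and a CHR element at -29. CENPF held CCAAT matches at -94, -58, -33 and 13 and a CHR element at 41. CDC20 held CHR matches at -178 and -65 and CCAAT boxes at -100 and -55. In KIF20B the CHR letters stood back to back, at 25 and 31, after CCAAT matches at -131 and -98. BUB1 held CCAAT matches at -79 and -54 and a CHR element, the TTCGAA form, at 2. KIF2B held no match of either kind and KIF6 a CCAAT box at -63.

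The order and distance of the motifs were read in the 17 mitosis genes with both. They were read for listed members only, so no share over other genes stands beside these counts. A CCAAT match came before the nearest CHR match in 14 and after it in CDC20, CEP192 and CEP55. The distance between the first bases of the nearest pair ran from 9 to 122 bases, with a median of 27, and was at most 60 bases in 16 of the 17. It was 25 bases in CCNB2 and KIF11, 24 in KIF4A, 44 in PLK1, 35 in CDC25B and 39 in KIF22. Of the 27 CHR matches in mitosis genes of the high list, 23 began within 100 bases before or 50 after the start. The 5 other high genes with both were CEP57, KIF5B, TUBA1C, TUBB3 and TUBB4B. In the last 4 of them the CHR match came first, at -140 in KIF5B, -170 in TUBA1C, -225 in TUBB3 and -242 in TUBB4B.

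**Figure D5:**
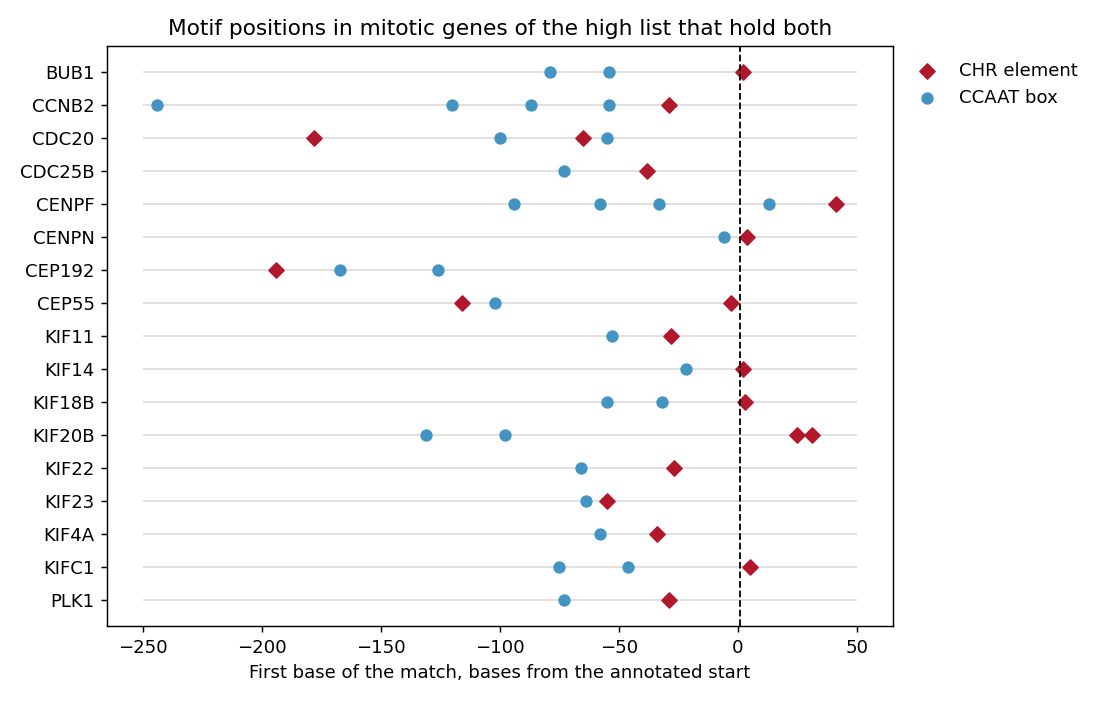
Positions of CHR elements (red diamonds) and CCAAT boxes (blue circles) in the promoters of the 17 mitosis genes of the high list that hold both, as the first base of each match in bases from the annotated start (dashed line). In 14 of the 17 genes the CCAAT match of the nearest pair lies before the CHR match, a count with no share over other genes beside it.

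Base composition of the promoters differed between the sets as well. The median GC content was 63.8% for mitosis genes of the high list, 69.2% for the other high genes and 60.7% for the low genes. It was 65.7% over the whole high list and 52.3% over the whole low list. The low genes here are the 6 with a promoter, KIF25-AS1 among them. The ratio of observed to expected CpG had medians of 0.951, 0.811 and 0.573 in the same 3 sets, against 0.862 over the high list and 0.294 over the low list. CHR letters are rich in A and T, and the part of composition in the motif shares was not tested.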

How the data were processed

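RNA was sequenced from 3 migrated and 3 non-migrated libraries of SiHa cells. Per the labels' protocols, equal numbers of cells were seeded in each of 6 wells and RNA was extracted with Trizol. CASAVA 1.8.2 and Cufflinks 2.2.1, with Cuffdiff, TopHat2 and the build hg19, appear in the submitters' processing notes without order or settings. Per the file headers, the deposited expected counts are unscaled fragments per assembled locus in every library, and here they gave the depth only. The index of a library within its fraction was read as its replicate number, which no result uses. The other deposited files are 2 gene lists of 4531 and 4436 rows with hg19 start and end and no value.

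Counts on the lists were made by exact symbol in Python 3.11.15. The 4 symbols on both lists were left out, and 0 of them matched the name pattern. Genes on neither list were enumerated from RefSeq (GRCh38.p14), which held all 85 members. Roles come from textbook knowledge. The members, lists and roles were chosen with earlier results of these data known. Named genes were members by family and class, of which 1 is counted but not reported here by name, and the printed promoters 5 mitosis genes of the high list with the most CHR and CCAAT matches (ties by symbol) and low list kinesins. Planned protein comparisons were not run and were replaced, after the files were seen, by coding sequences of GENCODE 29, by principal transcript, aligned globally with Biopython 1.88 (match 2, mismatch -1, gap opening -5, extension -1). No test was run, since the lists hold no replicate values. The motif search was tested on simulated sequences.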

Additional observations from a re-analysis of the deposited data

How the results depend on the processing

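No paired analysis was possible because the lists hold no value per library, so no result comes from a test. Of 51 alternative values, 42 stayed within 1.5 times the value reported, for counts and medians, or within its exact 95% binomial interval, for shares, and 9 moved. Intervals cover counting error only. Many of the 42 could not have moved, so their number is no measure of robustness. A share of 100% or 0% stays so when genes are left out, and a share of 0% when a search is narrowed. Some other settings touched no gene of the set they were applied to. Leaving out genes with mixed or unsure roles took the share of listed ciliary genes on the high list to 0%, against 50%, because KIF3B and KIF7 were among those left out, and counting centrosomal genes as ciliary gave 76.9%. The share of all listed symbols on the high list, 50.6%, became 54.4% once LINC, defensin, keratin associated and olfactory receptor symbols were left out and 54.1% over protein-coding symbols alone. The median span of the low genes, 29.6 kb, became 172 kb over protein-coding genes and 8.08 kb without axonemal dyneins, so with 7 genes it describes none of them. On the forward strand alone, 38.1% of mitosis genes of the high list held a CHR match, 28.6% a CCAAT match and 14.3% both, against 10.2%, 25.5% and 2.29% of the whole high list, a search that counts fewer matches by construction. There the other high genes held a CCAAT match in 39.3%, more than the mitosis genes, and both in 10.7%, and mitosis genes on neither list held both in 14.3%. In a window of 120 bases before to 30 after the start, 3.57% of the other high genes held both, and of the mitosis genes 35.7%. With older symbols matched, 80 of the 211 genes were high, 7 low and 124 on neither list. Leaving out AURKAIP1 and using 1 start per gene were chosen after seeing the data and moved nothing past these limits in the sets of listed members. No library could be left out, since no result rests on one.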
